A study of Homo sapiens with 4 samples.

Results

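The proteasome is the enzyme complex that degrades proteins tagged with ubiquitin, and the genes described here are its subunits and the chaperones that assemble it. Members were chosen by name alone: every row of the deposited expression table whose gene symbol begins with PSMA, PSMB, PSMC, PSMD, PSME, PSMF or PSMG followed by a digit, with pseudogenes left out. A total of 49 of the 22361 rows fit the name rule and 0 of them were pseudogenes. PSMC3IP fits the letters but encodes a factor of meiotic recombination and was set apart, which left 48 members on 17 chromosomes. RNA was measured in Jurkat cells, an established human cell line of T-cell leukaemia origin. The 2 control libraries came from cells infected with a lentivirus encoding an shRNA (a short hairpin RNA that triggers destruction of a matching transcript) against GFP, a gene these cells do not carry naturally. The 2 ARIEL knockdown libraries came from cells infected in the same way with a hairpin that targets the long non-coding RNA ARIEL. Both groups went through puromycin selection and were collected 72 h after infection. The whole study rests on 1 cell line, the labels do not say how many hairpins were used against ARIEL, and whether replicates are separate cultures is not stated, so p-values here speak of the spread among these 4 libraries and no more.

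A proteasome has a barrel, the 20S core, built of rings of alpha subunits (PSMA genes) that gate the entrance and rings of beta subunits (PSMB genes) that line the chamber. Within the beta rings, PSMB5, PSMB6 and PSMB7 carry the cutting sites, and immune signals can replace them with PSMB8, PSMB9 and PSMB10, which makes the immunoproteasome. A 19S particle caps the barrel: its base holds the ATPases (PSMC genes) that unfold a substrate and the receptors that bind ubiquitin, and its lid removes the ubiquitin chain. Other caps (PSME genes) open the barrel without the ATPases, and dedicated chaperones (PSMG1 to PSMG4, PSMD5, PSMD9, PSMD10) hold parts together during assembly and are not in the finished particle. When proteasome activity drops, the transcription factor NFE2L1 is known to raise many of these genes at once through a motif called the antioxidant response element.

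Levels are given as rlog (regularised log) values, in log2 units. This transform shrinks each gene towards its own average, most where reads are few, and a difference between rlog values is therefore smaller than the change itself. A difference is always ARIEL knockdown minus control, and ± after a difference is its standard error (SE) from limma with n = 2 libraries per group. "Higher", "lower", "rose" and "fell" mark genes with an adjusted p under 0.05 in limma, fitted over the 14601 genes whose mean reached log2 of 10, with Benjamini-Hochberg adjustment. The depth of the libraries is unknown, since the files give no read totals, and an exact permutation test of 2 against 2 libraries cannot give a p under 0.333. The table holds no row named ARIEL. The locus XLOC_005968 on chromosome 10 was taken as the target from background knowledge of the study. It stood at rlog 12.02 and 11.91 in the controls but only 10.58 and 10.55 after knockdown. The difference was -1.40 ± 0.04 (limma adjusted p 1.22133e-249), and the authors' deposited table gives the locus as 6.50-fold lower. All 7 markers chosen for T cells as represented by the leukaemia line Jurkat passed the level filter, with a median difference of -0.05. Of these CD247 was higher, CD3G, CD28 and TAL1 were lower, and CD3D, CD3E and LCK were not called. Of 5 B-cell markers only CD79A passed the filter, and it rose by 0.29 ± 0.04, while MS4A1 was listed at 0. Of 5 myeloid markers CD14 and ITGAM passed at rlog 3.83 to 4.44 and were not called, and CSF1R was listed at 0. Of the fibroblast or epithelial markers COL1A1 was lower and KRT8 higher, at rlog 7.20 to 7.41 and 4.65 to 4.75, and COL1A2 and EPCAM were listed at 0, as were 2 of 3 erythroid markers. The part of these markers in the results below was not tested.

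The antioxidant response element is shown first because it is the sequence through which proteasome genes are known to be raised together, here searched as its core TGACNNNGC on both strands of RefSeq promoters (GRCh38.p14, from 250 bases before to 50 bases after the start). The core was present in 13 of 42 member promoters (31.0%), in 1460 of 9657 promoters of tested protein-coding genes (15.1%) and in 3702 of 27305 promoters in the whole table (13.6%). Below are the stretches around it, with the match in capitals, for the 7 carriers that passed the test; where the capitals begin with GC, the core reads on the other strand. PSMD9 holds 2 matches in its window, and the first is shown.

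PSMB3, chr17:38752627-38752655, plus strand: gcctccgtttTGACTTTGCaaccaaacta

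PSMB9, chr6:32854034-32854062, plus strand: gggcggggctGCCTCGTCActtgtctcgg

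PSMC4, chr19:39971182-39971210, plus strand: acagaggccgGCTTGGTCActatggagga

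PSMD9, chr12:121888631-121888659, plus strand: cgctactcctGCCGGGTCAccacaggcgc

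PSME2, chr14:24146767-24146795, minus strand: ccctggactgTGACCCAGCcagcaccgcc

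PSMD12, chr17:67366724-67366752, minus strand: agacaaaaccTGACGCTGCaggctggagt

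PSME4, chr2:53971009-53971037, minus strand: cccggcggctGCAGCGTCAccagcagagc

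The first 5 of these genes were higher in the knockdown libraries and the last 2 were lower. Over all tested genes 22.1% were higher and 22.4% lower, and the part of the motif in the calls was not tested. The other 6 carriers (PSMD1, PSMD3, PSMD5, PSME1, PSMG1 and PSMG2) were not called, and the median difference of the 13 carriers was 0.03. Among the 29 members with a promoter and no match, 5 were higher, 4 were lower and 19 were not called, PSMB11 being untested, with a median difference of 0.01. A match is a stretch of letters and not evidence of binding. PSMA7, PSMB1, PSMB6, PSMB7, PSMD4 and PSMG3 had no entry in the promoter table. Each of these genes was higher in the knockdown libraries. The counts with and without a match therefore leave out part of the higher members, whose motif status is unknown.

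Proteasome genes moved in both directions after ARIEL knockdown. Of the 48 members, 47 passed the level filter, and of these 16 were higher, 6 were lower and 25 were not called. Over all tested genes 22.1% were higher and 22.4% were lower, 44.4% in either direction. The median difference of the members was 0.03, against 0.00 over all tested genes, and 28 members had a positive and 19 a negative difference. Control and knockdown libraries did not overlap for 34 members, 23 of them with the knockdown libraries above and 11 below; over all tested genes the groups did not overlap for 70.7%, 35.6% upward and 35.1% downward. The authors' deposited table called 16 members higher and 5 lower, against 20.1% and 19.3% of all tested genes with an adjusted p there. Most changes were small: 15 of the 16 higher members had a change under 30% in the authors' deposited table, with PSMD10 as the exception. The median deposited log2 fold change was 0.24 for the higher members and 0.29 for all higher genes. The share of all higher genes under 30% was not counted, so small size is not shown to be particular to the members.

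These counts rest on a spread shared by all genes of a level. With each gene's own variance in place of it, limma called 0 members and 0 genes in all, while 13 members were higher and 3 lower at an unadjusted p under 0.05, as were 31.2% of all genes in either direction. Leaving out a library also moved the counts: 9 members were higher without ARIEL knockdown replicate 2, 3 were lower without control replicate 1, and 8 were lower without control replicate 2. The shares over all genes under these settings were 13.7% higher, 18.4% lower and 21.4% lower.

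**Figure D1:**
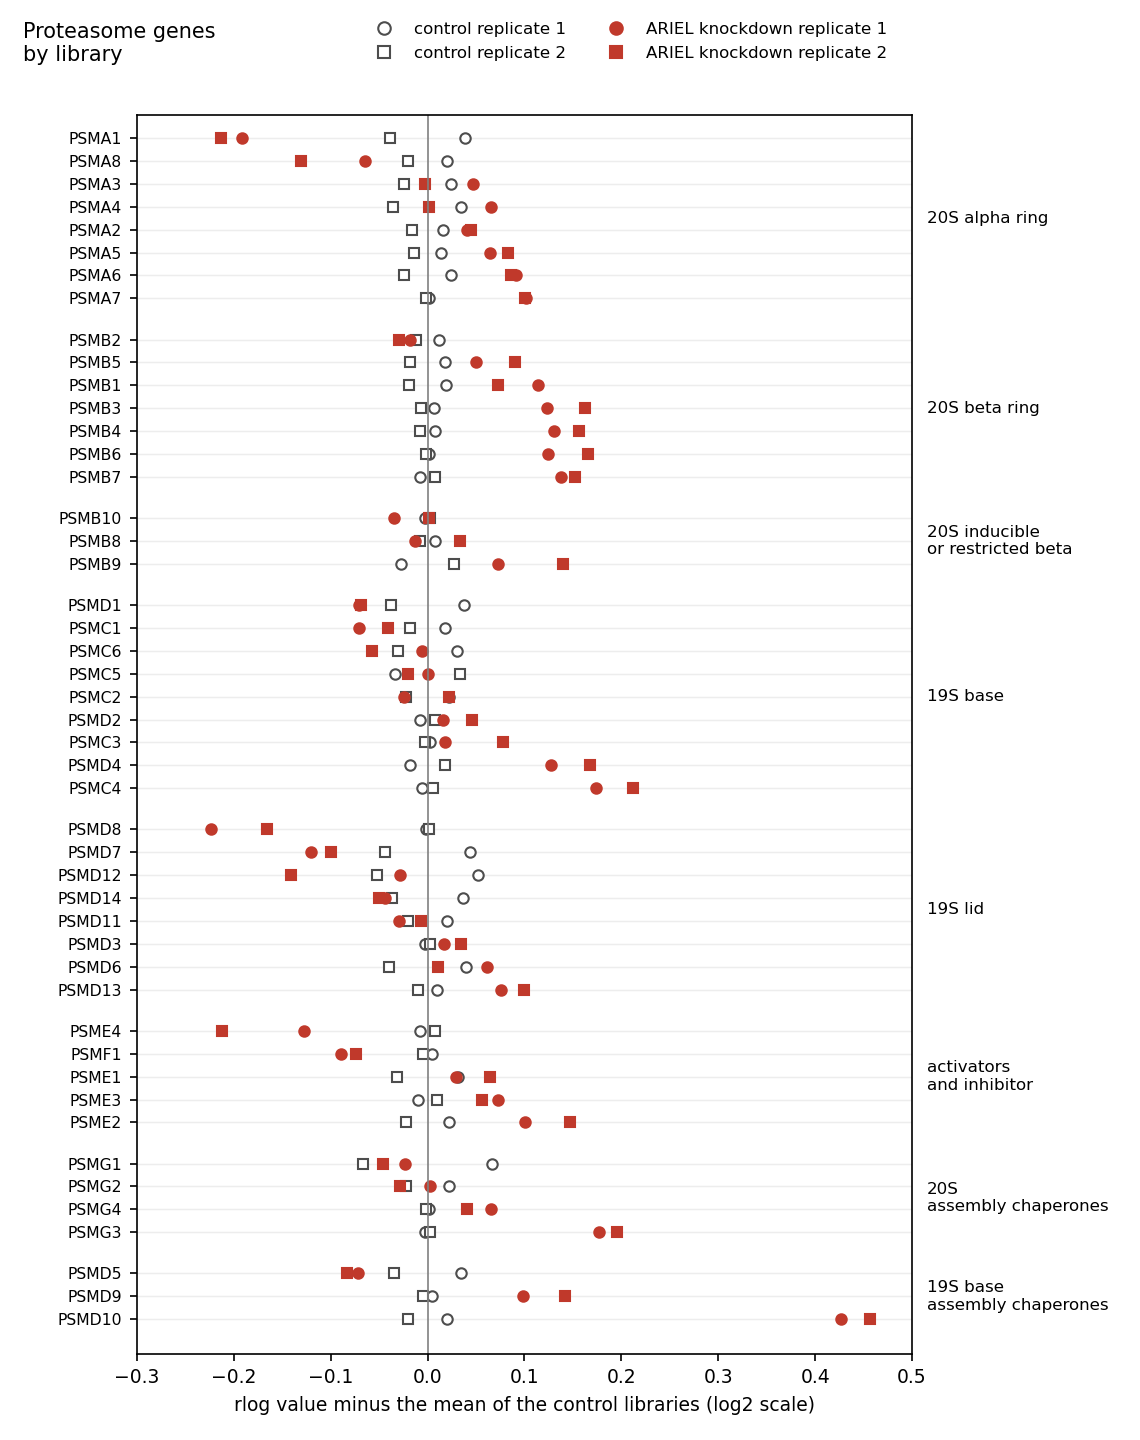
Level of each tested proteasome gene in the 4 libraries, as the rlog value (log2 scale) minus the mean of the control libraries; open grey symbols are control, filled red symbols ARIEL knockdown, circles replicate 1 and squares replicate 2. PSMD10 lies farthest to the right, and PSMA1, PSMD8 and PSME4 farthest to the left.

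By class, the beta ring had 5 higher and 0 lower members of 7, with a median difference of 0.14 (0.08 with the trend on GC content and length removed). The alpha ring had 3 higher and 1 lower of 8, with a median of 0.04, and the base 2 higher and 0 lower of 9, with a median of 0.00. The lid had 1 higher and 3 lower of 8, with a median of -0.03. Activators and inhibitor had 1 higher and 2 lower of 5 (median 0.05), and the chaperones 3 higher and 0 lower of 7 (median 0.05). These counts stand against 22.1% higher and 22.4% lower over all tested genes, and differences between the classes were not tested. With the trend on GC content and length removed, the median was 0.06 for the alpha ring, 0.01 for the base and -0.01 for the lid. It was 0.01 for activators and inhibitor and -0.0044 for the chaperones. The inducible beta subunits, described below, had a median of 0.01, and of -0.04 with the trend removed.

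**Figure D2:**
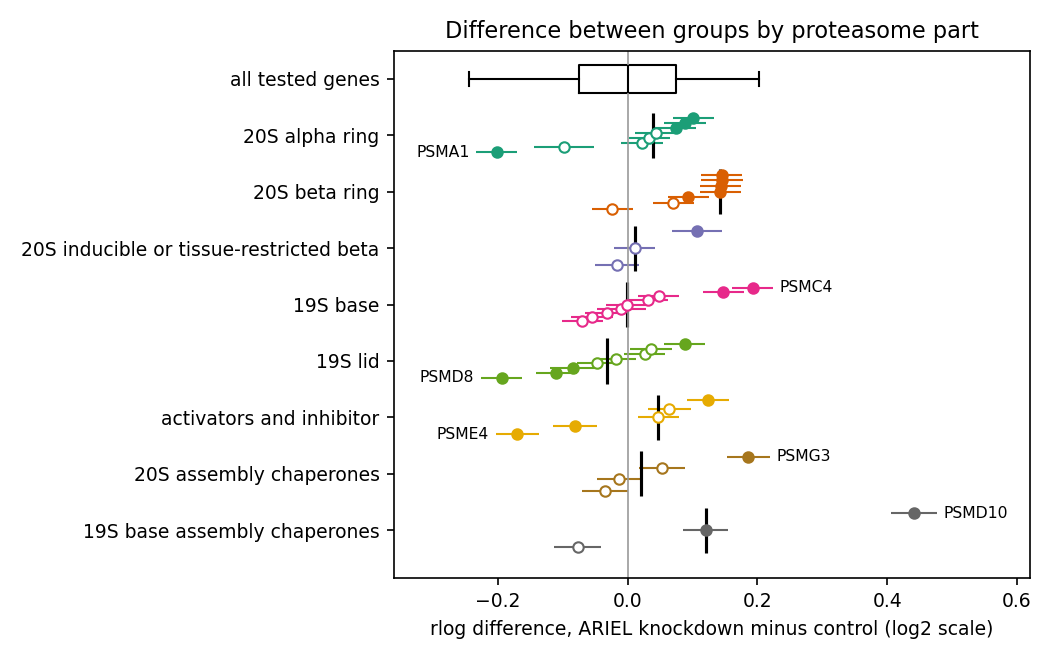
Difference between ARIEL knockdown and control on the rlog (log2) scale for each tested member by class; bars are ±1 SE, filled points passed the limma test and black ticks are class medians. The box on top gives all 14601 tested genes (median, quartiles and the 5th and 95th percentiles); 4 of the 7 beta ring genes crowd near 0.14, while the lid spreads to both sides of 0.

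In the alpha ring, whose N-terminal tails close the gate of the barrel, PSMA1 fell, PSMA5, PSMA6 and PSMA7 rose and the other 4 genes were not called. PSMA1 had rlog 14.62 and 14.55 in the control and 14.39 and 14.37 in the knockdown libraries. Both knockdown libraries were below both controls, by 0.20 ± 0.03 (limma adjusted p 2.26e-09), and the authors' deposited table gives a fall of 22.3%. Over all tested genes 7.4% fell at least as far. PSMA7 rose by 0.10 ± 0.03 (adjusted p in limma 0.00466), from 14.66 in both controls to 14.76 in both knockdown libraries. PSMA6 was at 15.84 and 15.79 against 15.91 and 15.90, a rise of 0.09 ± 0.03 (limma adjusted p 0.0171). PSMA5, at 14.64 and 14.61 against 14.69 and 14.71, rose by 0.07 ± 0.03 (limma adjusted p 0.0456). The groups did not overlap for any of these 3 genes, but their calls were fragile: PSMA7 had an adjusted p of 0.0521 without ARIEL knockdown replicate 2, PSMA6 had 0.208, 0.0913 and 0.0810 without control replicate 2, knockdown replicate 1 and knockdown replicate 2, and PSMA5 had 0.0610 to 0.260 without any 1 of the 4 libraries. PSMA2, PSMA3 and PSMA4 were not called, with differences of 0.02 to 0.04. The testis-enriched alpha subunit PSMA8 was at 10.19 and 10.15 in the control and 10.10 and 10.04 in the knockdown libraries, and its difference of -0.10 ± 0.05 did not pass (limma adjusted p 0.0728), though it passed as lower with no trend of the spread on level (0.0331).

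In the beta ring 5 of 7 genes rose and 0 fell. PSMB3 and PSMB4, which are structural and do not cut, and PSMB6 and PSMB7, which carry the caspase-like and the trypsin-like site, all rose by 0.14 to 0.15. PSMB7 was at rlog 14.36 and 14.37 in the control and 14.50 and 14.52 in the knockdown libraries, a rise of 0.15 ± 0.03 (limma adjusted p 2.75e-05). PSMB6, at 13.54 in both controls, reached 13.67 and 13.71 and rose by 0.14 ± 0.03 (limma adjusted p 4.49e-05). PSMB4 stood at 15.01 and 15.00 against 15.14 and 15.16, a rise of 0.14 ± 0.03 (limma adjusted p 3.56e-05). For these genes the gap between groups was several times the gap between replicates. PSMB3 likewise had 14.59 and 14.57 against 14.70 and 14.74 and rose by 0.14 ± 0.03 (limma adjusted p 3.70e-05). These 4 genes rose by 19.4% to 19.9% in the authors' deposited table. PSMB1, at 14.74 and 14.70 against 14.83 and 14.79, rose by 0.09 ± 0.03 (limma adjusted p 0.00923), a call lost without control replicate 2 (0.105) and without knockdown replicate 1 (0.162). PSMB5, the chymotrypsin-like subunit and the main target of proteasome inhibitor drugs, was at 13.94 and 13.90 against 13.97 and 14.01. Its libraries did not overlap, but the difference of 0.07 ± 0.03 had a limma adjusted p of 0.0607, and its 95% interval ran from 0.01 to 0.13; it passed with the libraries centred to the same median (0.0432) and after quantile normalization (0.0199). PSMB2 was at -0.02 ± 0.03 and not called.

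The inducible beta subunits, which interferon signalling is known to raise, had 1 higher and 0 lower of 3 tested. PSMB8 was at rlog 13.95 and 13.93 in the control and 13.92 and 13.97 in the knockdown libraries. Its groups overlapped, and its difference of 0.01 ± 0.03 (limma adjusted p 0.818) had a 95% interval from -0.05 to 0.07. PSMB10 overlapped in the same way, with 12.90 and 12.91 against 12.87 and 12.91, a difference of -0.02 ± 0.03 (limma adjusted p 0.724) and an interval from -0.08 to 0.05. PSMB9 was at 11.59 and 11.64 against 11.69 and 11.76 and rose by 0.11 ± 0.04 (limma adjusted p 0.0156); the call was lost without control replicate 1 (0.145) and without knockdown replicate 2 (0.301). PSMB11, the subunit of the thymic cortex, was not tested, with values of 0.30, 0.30, 0.30 and 0.31.

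Each inducible subunit takes the place of 1 constitutive subunit, so the balance within a pair was also followed, as the rlog difference after subtracting log2 of each transcript's length. PSMB8 stood above PSMB5 by 0.21 and 0.23 in the control and by 0.16 in both knockdown libraries. Without the length term PSMB8 was at 13.95 and 13.93 in the control, against 13.94 and 13.90 for PSMB5. In the knockdown libraries it was below PSMB5, at 13.92 and 13.97 against 13.97 and 14.01. The sign of this balance thus depends on the transcript lengths used. The shift between groups does not depend on them. PSMB9 stood below PSMB6, at -1.83 and -1.77 in the control and -1.85 and -1.83 in the knockdown libraries. For PSMB10 against PSMB7 the balance was -1.77 and -1.78 in the control and -1.94 and -1.92 in the knockdown libraries. All 3 balances were lower on average in the knockdown libraries, by 0.06, 0.04 and 0.16. The groups did not overlap for PSMB8 against PSMB5 and PSMB10 against PSMB7, and they overlapped for PSMB9 against PSMB6. Taken as single genes, 70.7% of all tested genes had no overlap, and no such share was computed for balances of other gene pairs. The shift is the difference of values already tested above and was not tested on its own. These are RNA levels and do not give the make-up of the particle.

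**Figure D3:**
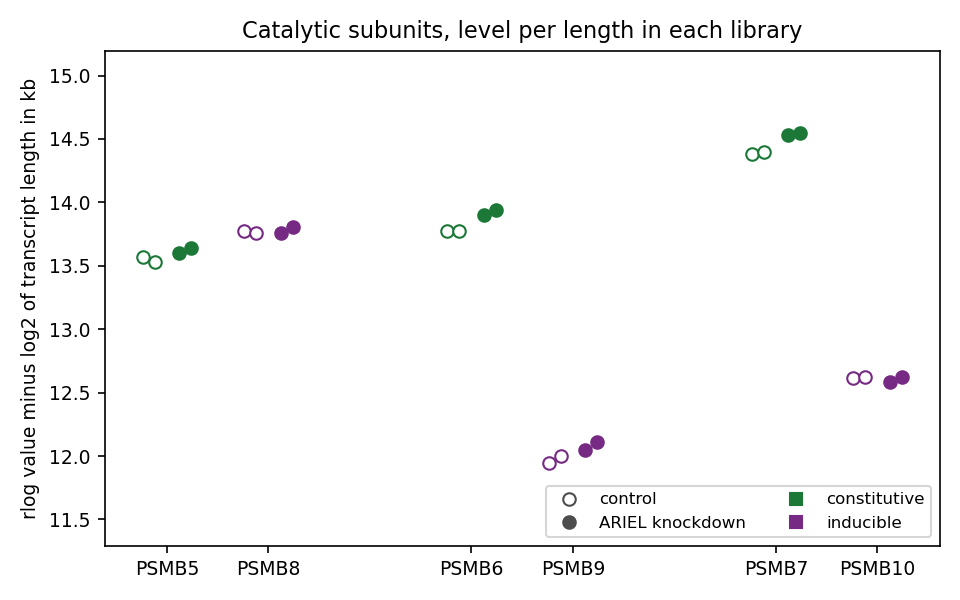
Level per transcript length (rlog minus log2 of length in kb, log2 scale) of the catalytic subunits in each library, constitutive in green and inducible in purple, control open and ARIEL knockdown filled; each neighbouring pair is a constitutive gene and its inducible replacement. PSMB7 averaged 14.39 in the control and 14.54 in the knockdown libraries, while PSMB10 averaged 12.62 and 12.60.

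In the base of the 19S particle, 1 of the 6 ATPases was called. PSMC4 was at rlog 14.05 and 14.07 in the control and 14.23 and 14.27 in the knockdown libraries, a rise of 0.19 ± 0.03 (limma adjusted p 1.58e-08) with no overlap, or 27.1% in the authors' deposited table. The other 5 ATPases, PSMC1, PSMC2, PSMC3, PSMC5 and PSMC6, had differences from -0.06 to 0.05 and were not called, although in the finished particle these 6 proteins form 1 ring. PSMD4, a receptor that binds ubiquitin chains, was at 14.51 and 14.55 against 14.66 and 14.69 and rose by 0.15 ± 0.03 (limma adjusted p 1.99e-05), again with both knockdown libraries above both controls. The large scaffold subunits PSMD1 and PSMD2 had differences of -0.07 ± 0.03 and 0.03 ± 0.03 and were not called; PSMD1 passed as lower without control replicate 2 (adjusted p 0.0155) and after quantile normalization (0.0138).

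In the lid 3 of the 4 called genes were lower. PSMD8, which is needed for the lid to join the base, was at rlog 14.51 and 14.52 in the control and 14.29 and 14.35 in the knockdown libraries. Both knockdown libraries were below both controls and the fall was 0.19 ± 0.03 (limma adjusted p 9.94e-09), or 21.4% in the authors' deposited table. PSMD7, the partner of the deubiquitinase PSMD14, fell by 0.11 ± 0.03 (limma adjusted p 0.00212) with values of 14.15 and 14.06 against 13.98 and 14.00; the call was lost without control replicate 1 (0.165) and without knockdown replicate 1 (0.0542). PSMD12 was at 12.54 and 12.43 against 12.46 and 12.34, so its groups overlapped, and its call at -0.08 ± 0.04 (limma adjusted p 0.0389) rests on the shared SE, of which its own SD was 2.18 times the size. In the authors' deposited table it was not called (0.135 as the adjusted p there), nor in limma without control replicate 1 (0.574) or knockdown replicate 2 (0.706). PSMD13 went the other way, with 14.57 and 14.55 against 14.63 and 14.66, a rise of 0.09 ± 0.03 (limma adjusted p 0.0156) that was lost without control replicate 2 (0.0912) and knockdown replicate 2 (0.168). PSMD14 itself, which cuts the ubiquitin chain off the substrate, had a difference of -0.05 ± 0.03 and was not called, as were PSMD3, PSMD6 and PSMD11.

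The alternative caps and the inhibitor were split. PSME1 and PSME2 form the interferon-induced PA28 cap together. PSME2 was at rlog 13.79 and 13.75 in the control and 13.87 and 13.91 in the knockdown libraries and rose by 0.12 ± 0.03 (limma adjusted p 0.000513), a call lost without knockdown replicate 2 (0.0635). PSME1 had 14.69 and 14.62 against 14.68 and 14.72, overlapping groups and a difference of 0.05 ± 0.03 (limma adjusted p 0.224). PSME3, the nuclear PA28 subunit, had 13.35 and 13.37 against 13.43 and 13.42 and a difference of 0.06 ± 0.03 that did not pass (limma adjusted p 0.0966). PSME4, the single large subunit of the PA200 cap, fell by 0.17 ± 0.03 (limma adjusted p 3.47e-06): it was at 12.99 and 13.01 in the control and 12.87 and 12.79 in the knockdown libraries, with no overlap. The inhibitor PSMF1 was at 12.93 and 12.92 against 12.83 and 12.85 and fell by 0.08 ± 0.03 (limma adjusted p 0.0383), but it lost the call without any 1 of the 4 libraries (0.0633 to 0.200), with the libraries centred to the same median (0.0577) and after quantile normalization (0.0860).

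PSMD10 changed the most of all members, in either direction. It encodes gankyrin, a chaperone of the 19S base that is also known to bind the retinoblastoma protein and MDM2. Its rlog was 12.19 and 12.15 in the control and 12.59 and 12.62 in the knockdown libraries, a rise of 0.44 ± 0.04 (limma adjusted p 1.35e-33), and the authors' deposited table gives it as 1.75-fold higher. Over all tested genes 56, or 0.384%, rose at least as far. The gap between its groups was many times the gap between its replicates.

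Of the other base chaperones, PSMD9 rose by 0.12 ± 0.03 (limma adjusted p 0.00163), with 12.72 in both controls and 12.82 and 12.86 in the knockdown libraries; without knockdown replicate 2 its adjusted p was 0.0949. PSMD5 had 12.31 and 12.24 against 12.20 and 12.19 and a difference of -0.08 ± 0.04 (limma adjusted p 0.0675), and it passed as lower without control replicate 2 (0.0188). Thus 2 of the 3 base chaperones rose and the third had a negative difference that did not pass. Among the chaperones of the 20S core, PSMG3 was at 12.98 and 12.99 against 13.16 and 13.18, a rise of 0.19 ± 0.03 (limma adjusted p 2.24e-07) with no overlap. Its partner PSMG4 had 12.30 in both controls and 12.37 and 12.34 in the knockdown libraries, and the difference of 0.05 ± 0.04 did not pass (limma adjusted p 0.223). The other pair was not called: PSMG1 had 12.50 and 12.37 against 12.41 and 12.39 (-0.03 ± 0.04, limma adjusted p 0.450), and PSMG2 had 12.71 and 12.67 against 12.69 and 12.66 (-0.01 ± 0.03, 0.791). Control replicate 1 was the highest library for PSMG1, and without control replicate 2 PSMG1 passed as lower (0.0321).

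Genes that share a start region with a member were read beside it, since 13 members have an expressed gene that starts within 1000 bases on the opposite strand. ATG4A, an autophagy protease, starts 50 bases from PSMD10 and had rlog 11.69 and 11.60 in the control and 11.60 and 11.63 in the knockdown libraries (-0.03 ± 0.04, limma adjusted p 0.522). PDE3B, a phosphodiesterase 88 bases from PSMA1, had a difference of 0.01 ± 0.03 (limma adjusted p 0.895). Neither of these genes, across the start from the largest rise and the largest fall among the members, was called. RNF31, which starts near PSME2 and encodes a subunit of the linear ubiquitin ligase, rose with it by 0.14 ± 0.03 (limma adjusted p 0.000140), and MRPL32 beside PSMA2 rose by 0.13 ± 0.03 (limma adjusted p 0.000600) while PSMA2 was not called. SS18L1, TBP, SIRT3 and ACYP2, beside the called members PSMA7, PSMB1, PSMD13 and PSME4, had differences of -0.02, 0.09, 0.01 and 0.08 and were not called. PSMB8 and PSMB9 are themselves such a pair.

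Short words in the 3′ untranslated region are shown because GATGACA and AGATGAC marked lower genes, and TGTTGTC and GTTGTCA higher genes, in earlier work on these same data, so their values here are a description. Stretches come from GENCODE 29 transcripts, with the word in capitals.

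PSMA1, from base 60 after the stop codon: accacatactGATGACAataatctata

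PSME4, from base 3: aaAGATGACtagtcctcac

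PSMG1, from base 602: ggtaaaaattGATGACAaagtaacaaa

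PSMD10, from base 36: tatgttgtgtTGTTGTCcccagtgtcc

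PSMD10, from base 214: attgttctacTGTTGTCgtatattctt

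Of the 46 tested members searched, 4 (PSMA1, PSME4, PSMC1 and PSMG1) carried the first pair of words, or 8.70%, against 14.1% of 12558 genes. Their median difference was -0.11 against 0.04 for the other members, and -0.06 against 0.01 over all genes. The second pair was also in 4 members (PSMA2, PSMA4, PSMD9 and PSMD10), with a median of 0.08 against 0.02 for the rest, whereas over all genes both medians were 0.00. Members have short 3′ untranslated regions, with a median of 316.5 bases against 1050 bases over all genes searched.

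GC content moved with the differences. Across the 12841 tested genes with a known transcript, Spearman's rho of the difference with transcript GC content was 0.40, and across the 47 members it was 0.41. The same trend stood between replicates. Control replicate 2 minus control replicate 1 had a rho of 0.59 with GC content over all genes and 0.60 over the members. For knockdown replicate 2 minus knockdown replicate 1 these values were 0.41 and 0.58. The 16 higher members had a median GC content of 53.1% and a median transcript length of 1189.5 bases, and the 6 lower members 45.6% and 2980 bases. With transcript length rho was -0.24 over all genes and -0.57 over the members. All points share the 4 libraries, genes are not independent, and the part of GC content and length in the result was not tested. With the trend of each library on GC content and length removed, 18 members were higher and 6 lower, against 27.7% and 25.1% of all genes. PSMD10 then had a difference of 0.46 and PSMA1 -0.20. The beta ring kept 5 higher members of 7 with its median at 0.08, down from 0.14, and the alpha ring had 5 higher members of 8 with a median of 0.06. PSMB9 lost its call (adjusted p 0.261), PSMB10 passed as lower at -0.10 (0.000385), PSMA2, PSMA4 and PSMC2 passed as higher, and the difference of PSMD12 went to 0.00. Among members that kept their call, PSMA5 moved from 0.07 to 0.16, PSMA7 from 0.10 to 0.05, PSMB3 from 0.14 to 0.09, PSMB6 from 0.14 to 0.08, PSMD13 from 0.09 to 0.06, PSME2 from 0.12 to 0.06 and PSMG3 from 0.19 to 0.12. PSMC4 moved from 0.19 to 0.14, PSMD4 from 0.15 to 0.11, PSMB4 from 0.14 to 0.10 and PSMB7 from 0.15 to 0.12. PSME4 moved from -0.17 to -0.10 and PSMF1 from -0.08 to -0.05, while PSMD8 moved the other way, from -0.19 to -0.25.

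**Figure D4:**
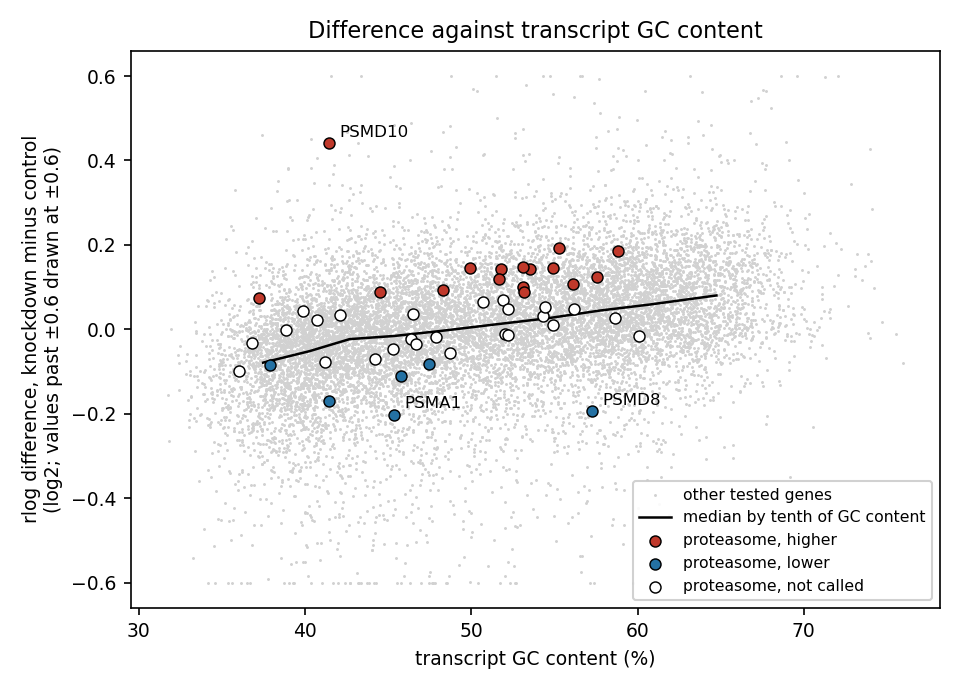
Difference between ARIEL knockdown and control (rlog, log2 scale) against transcript GC content (%), with proteasome genes as large points and the other tested genes as grey dots; the line joins medians over bins of GC content that hold equal numbers of genes. The line climbs with GC content, most higher members lie above it, and PSMD10 and PSMD8 lie far from it at 0.44 and -0.19.

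Other genes of the pathway came from lists chosen by function. Of 52 tested genes in these lists, 17 were higher, 15 lower and 20 not called, against 22.1% higher and 22.4% lower over all tested genes; each list below is small, and its counts are a description. Among the 4 subunits and chaperones whose symbols do not begin with PSM, SEM1 (SHFM1 in the table), the small subunit of the lid, fell by 0.45 ± 0.04 (limma adjusted p 1.07e-35). Its rlog was 12.72 and 12.69 in the control and 12.26 and 12.25 in the knockdown libraries, with no overlap, and the authors' deposited table gives it as 1.78-fold lower. ADRM1, the ubiquitin receptor of the base, rose by 0.18 ± 0.03 (limma adjusted p 6.14e-07), and PAAF1, a base chaperone, by 0.12 ± 0.04 (0.00330), though PAAF1 was lost without knockdown replicate 1 (0.0984). POMP, a chaperone of core maturation, fell by 0.10 ± 0.03 (0.00888), but it was lost without control replicate 1 (0.580) and without knockdown replicate 2 (0.232), and its difference was 0.00 with the GC and length trend removed.

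Of 8 regulators of proteasome transcription, 4 were lower, 1 was higher and 3 were not called. NFE2L1 had rlog 14.56 and 14.59 in the control and 14.44 and 14.50 in the knockdown libraries, a fall of 0.11 ± 0.03 (limma adjusted p 0.00254) that was lost without knockdown replicate 1 (0.147). Its relative NFE2L2 (NRF2), at 11.77 and 11.76 against 11.47 and 11.40, fell by 0.33 ± 0.04 (limma adjusted p 6.14e-16). The small MAF protein MAFK, which pairs with both factors on the antioxidant response element, rose by 0.38 ± 0.03 (limma adjusted p 8.47e-30), from 13.47 and 13.52 to 13.85 and 13.89. For NFE2L2 and MAFK the groups stood far apart. Of the other small MAF genes, MAFG fell by 0.12 ± 0.03 (limma adjusted p 0.00157) and MAFF was not called at 0.08 ± 0.05. DDI2, the protease that activates NFE2L1, was not called at -0.02 ± 0.03, and the O-GlcNAc transferase OGT fell by 0.15 ± 0.03 (limma adjusted p 1.56e-05).

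The list of ubiquitin genes and activating enzymes had 4 higher and 2 lower of 6. The E1 enzyme UBA1 fell by 0.18 ± 0.03 (limma adjusted p 1.01e-07) and UBA6 by 0.14 ± 0.03 (8.29e-05), the latter lost without knockdown replicate 2 (0.157) and with the GC and length trend removed (0.656). Of 8 factors that bind the proteasome, 1 was higher and 2 lower: ZFAND2A, a stress-induced partner of the 19S particle, rose by 0.24 ± 0.04 (limma adjusted p 5.30e-07), the deubiquitinase USP14 fell by 0.19 ± 0.03 (1.14e-07) and the ligase UBE3C by 0.17 ± 0.03 (5.21e-07).

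Shuttle receptors and the VCP segregase, which bring substrates to the proteasome, had 5 higher and 2 lower of 10 tested. The VCP cofactors NSFL1C and NPLOC4 rose by 0.18 ± 0.04 and 0.17 ± 0.03 (limma adjusted p 4.11e-06 and 4.38e-07), while VCP fell by 0.15 ± 0.03 (3.17e-05). The COP9 signalosome, a complex related to the lid, had 4 higher and 1 lower of 9, with GPS1 and COPS6 up by 0.18 ± 0.03 and 0.15 ± 0.04 (limma adjusted p 6.59e-07 and 0.000133) and COPS2 at -0.20 ± 0.03 (2.15e-08). Of 7 genes of immunoproteasome induction and peptide loading, 0 were higher and 2 lower, among them NLRC5, an activator of MHC class I genes, which fell by 0.26 ± 0.04 (limma adjusted p 6.06e-08). IRF1, TAP1, TAP2, TAPBP and B2M were not called. With the GC and length trend removed, several of the genes named from these lists kept their call with a smaller difference: COPS2 -0.05, USP14 -0.10, OGT -0.09, ADRM1 0.08 and GPS1 0.10.

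**Figure D5:**
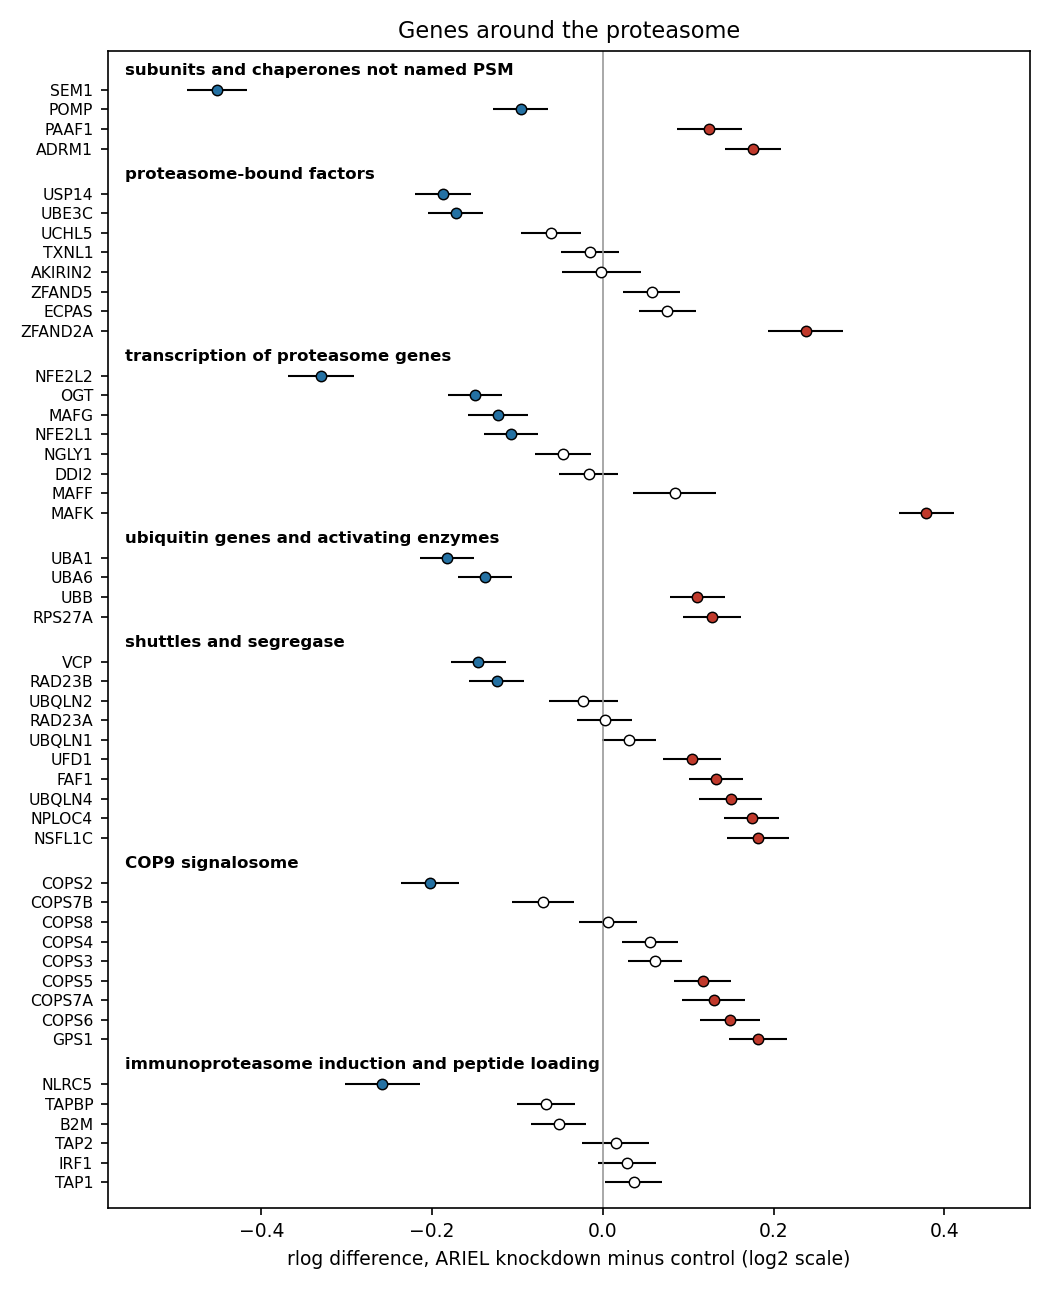
Difference between ARIEL knockdown and control (rlog, log2 scale) with ±1 SE for genes of 7 lists around the proteasome, of which 3 tested ones are not drawn; red points passed the limma test as higher, blue as lower, and open points were not called. SEM1 at -0.45 and MAFK at 0.38 stand farthest from 0.

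Counting could blur a few members. PSMD9 is the 1 member with an exon that overlaps a gene of the table on the same strand (WDR66), and 13 members overlap one on the opposite strand. GENCODE 29 names 32 pseudogenes after 12 of the members, 13 of them after PSMC1, 4 after PSMA6 and 3 after PSMD10, and 0 of the 32 are in the table, so how reads shared with them were counted is not given in the sources used here.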

How the data were processed

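RNA from 2 control and 2 ARIEL knockdown libraries of Jurkat cells was read as strand-specific 100-base pairs, per the labels' protocols. The submitters' processing notes list build hg19 and the tools DESeq2 1.12.4, HTSeq 0.6.1 and STAR 2.5.2a, with no roles. For every gene the authors deposited an rlog value in each library (log2 scale, per the file headers), and a log2 fold change with its SE, a test score, a p-value and an adjusted p. The table gives no counts, so depth is unknown.

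The design called for limma on rlog values, and limma 3.58.1 (R 4.3.3; lmFit, then eBayes with its trend option) was applied without a pseudocount to the 14601 genes with a mean of at least log2 of 10, with Benjamini-Hochberg adjustment at 0.05. The prior degrees of freedom were infinite, so genes of a level share 1 spread; the median SE was 0.04. The scripts were tested on simulated data with known answers, which held no trend on GC content. Of planted changes of 0.1, 31.3% were recovered, and of those of 0.25 and of 0.5, 100%. A small change can therefore go uncalled, and a gene not called is not shown to be unchanged. Only 67, 67 and 66 changes of these sizes were planted among 14601 genes, whereas 44.4% of genes were called in the data. The adjustment was thus stricter in the simulation, and the 31.3% does not carry over to the data. Differences of genes not called in the data ran from -0.11 to 0.11. Alternatives were other filters, scalings and spread models, a pseudocount, each library left out, a replicate block, and removal of GC content and length trends by splines with 5 degrees of freedom.

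The members, gene lists, motif and words were chosen with earlier results of these data known. Values by library are given for the catalytic, inducible and tissue-restricted subunits, activators, inhibitor and chaperones, and for the 8 largest rises and 8 largest falls among the other called members; outside the members, for the target and up to 3 called genes per list with the smallest adjusted p, and for genes fixed by name. PSMA5, MAFG, MAFF and the genes across shared starts were added after their values were seen. Some genes and sequences that these rules name are not reported here. Transcript properties come from GENCODE 29 (19320 rows matched by ID and 250 by symbol).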

Additional observations from a re-analysis of the deposited data

How the results depend on the processing

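Over 14 alternatives besides the one with each gene's own variance, 8 members stayed higher in all (PSMB3, PSMB4, PSMB6, PSMB7, PSMC4, PSMD4, PSMD10, PSMG3), 3 stayed lower in all (PSMA1, PSMD8, PSME4) and 14 were not called in any. The same count was not made over all tested genes, so these numbers have no share to be read against. With each gene's own variance limma called 0 members higher, 0 members lower, 0 genes higher and 0 genes lower. The limma adjusted p of PSMD10 was then 0.0848 and of PSMA1 0.144. Leaving out each library in turn gave 9 to 14 members higher, 3 to 8 members lower, 2004 to 3061 genes higher and 2221 to 3127 genes lower. Replicate numbers are shared by the groups, but with 2 pairs and a correlation of replicate differences of 0.198 they do not establish pairing; with the replicate block 10 members were lower and 18 higher, against 25.4% and 25.5% of all genes, and PSMA8, PSMC1, PSMD1 and PSMD5 passed as lower and PSMB5 and PSME3 as higher. With the GC and length trend removed POMP stood at 0.0035, PSMC2 at 0.064 and PSMD12 at 0.0024, each on the other side of 0 from its reported value, also with the replicate block added; the cause was not tested. Depth is unknown, and rlog values and 2 libraries per group limit what could be called.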
